A study of Rattus norvegicus with 16 samples.

Results

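The map described here is the list of RNA regions that were enriched for N6-methyladenosine (m6A) in control rat ovary. All 22316 peaks that the authors listed for m6A immunoprecipitation (IP) over input in the CON group were taken, with no further selection. They lie on 13149 gene identifiers, and 13084 of the 22663 genes in the expression table carry at least 1 peak (57.7%). The series holds 16 ovary libraries, and 8 of them belong to the CON group: 4 IP and 4 input libraries, from 4 rats numbered in the sample titles. The other group received VCD (4-vinylcyclohexene diepoxide, an industrial epoxide), and its values were not used here. CON is the only treatment label of these rats, and their strain, age and vehicle do not appear among the labels used here. The organism label is rat, whereas the series text speaks of mice. The stated interest of the study is how m6A and its binding protein Igf2bp3 act on meiotic transcripts.

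m6A is a methyl group on the adenosine base of RNA and is the most common internal mark of mammalian mRNA. A nuclear methyltransferase complex with Mettl3 as its catalytic subunit writes it, the demethylases Fto and Alkbh5 can remove it, and reader proteins such as those with a YTH domain bind it. It is known for gathering around stop codons, in long internal exons and in 3' untranslated regions, and in the ovary the oocyte depends on it for growth and meiosis. In the assay, fragments of poly(A) RNA are pulled down with an m6A antibody, and regions with more reads in the IP than in the input are called as peaks. The antibody also binds m6Am, a related mark beside the cap.

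The authors gave 1 list for the CON group as a whole, with an enrichment and an adjusted p-value per peak, so the values used here hold no spread of a peak between rats. Whether the libraries were pooled or modelled as replicates for it is not stated in the labels or headers. The 4 rats give replicates for the input levels only, in FPKM (fragments scaled to transcript length and library size). Sums per library lay between 403809 and 414332 FPKM, the read depth is unknown, and between 13618 and 13835 genes reached 1 FPKM. Where nothing else is said, a level is the mean FPKM over the 4 CON input libraries ± SD (n = 4), and an expressed gene is one with a mean of at least 1 FPKM. The ovary label was met by its defining markers: Star, Cyp11a1, Inha and Amh were well expressed in all 4 libraries, and the oocyte genes Gdf9 and Zp3 at single-digit FPKM. Of 32 entries in the oocyte list only 19 were expressed, with a median of 2.25 FPKM. In a bulk ovary, more cells of a type and more RNA per cell cannot be told apart.

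Of the expressed genes, 11199 of 13860 carried a peak (80.8%, 95% Wilson interval 80.1 to 81.4%, counting error only). Among expressed protein coding genes the share was 84% (10928 of 13005). A peak with a log2 enrichment of at least 2, which is a 4-fold excess in the IP, was present in 61.5% of expressed genes, and 39% carried 2 or more peaks. The median log2 enrichment over all peaks was 2.31, a 4.97-fold excess, with quartiles at 1.72 and 3.25. The weakest peak had a value of 0.79 and the strongest one of 8.37. The largest adjusted p-value in the list was 0.00693, and for 7690 peaks (34.5%) it is listed as 0. Peaks were divided evenly between strands, with 11217 on the plus and 11099 on the minus strand. The span of a peak is given from its first to its last base on the genome, introns included, and had a median of 1618 bases and quartiles of 375 and 6813.

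The authors gave each peak 1 annotation class. The stop codon class was the most frequent, with 7225 peaks (32.4%, Wilson interval 31.8 to 33.0%), and 7210 genes carried such a peak, which is 54.8% of all genes with a peak. Exonic peaks followed with 6096 (27.3%), then 3'UTR peaks with 4526 (20.3%), start codon peaks with 3073 (13.8%) and 5'UTR peaks with 690 (3.09%). Exons of noncoding RNAs held 637 peaks (2.85%). Peaks labelled intronic (52), intergenic (11), downstream (3) and upstream (3) were rare. A stop codon peak as the sole class was the most frequent pattern, in 3352 genes (25.5%). Stop and start codon peaks without any other class occurred together in 1040 genes (7.91%). The median midpoint of stop codon peaks lay at 89.6% of the gene's length from its start, that of exonic peaks at 56.9%, and that of start codon peaks at 19.1%.

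**Figure D1:**
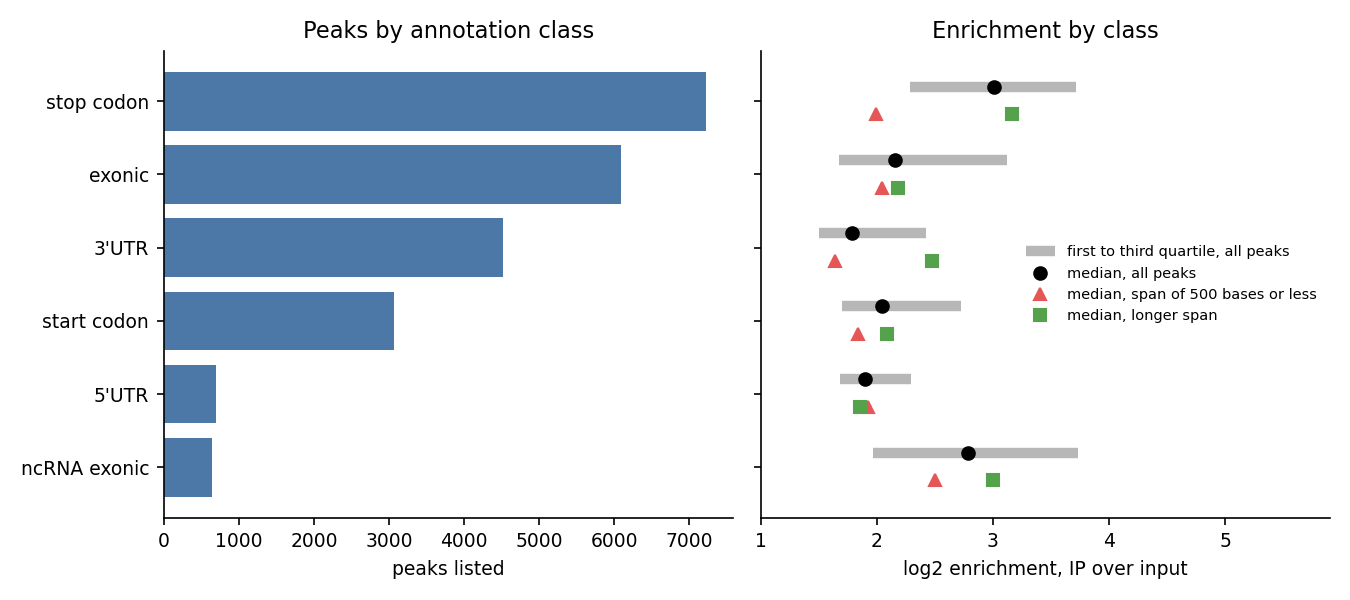
Left, the number of CON peaks in each of the 6 main annotation classes. Right, the log2 enrichment of IP over input by class, with medians and quartiles of all peaks and separate medians for peaks with a span of 500 bases or less and for longer ones: the stop codon class has the highest median over all peaks at 3.01, but at 1.99 its short peaks lie close to the short exonic peaks at 2.05.

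Stop codon peaks were also the most enriched class in protein coding genes. Their median log2 enrichment was 3.01 (8.06-fold, order-statistic 95% interval 2.97 to 3.04), against 2.16 for exonic, 2.04 for start codon, 1.90 for 5'UTR and 1.79 for 3'UTR peaks. Peaks in noncoding RNA exons had a median of 2.78. A log2 enrichment of at least 4 was reached by 15.2% of stop codon peaks, 8.53% of exonic peaks and 3.95% of 3'UTR peaks. In the most enriched 10% of the list 54.5% of peaks were of the stop codon class and 8.51% of the 3'UTR class, whereas in the least enriched 10% the shares were 9.50% and 52.1%. Enrichment is the value by which peaks were called and sites are not replicates, so these are descriptions with no test.

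Stop codon peaks were also the stronger ones in most genes that carry both classes of a pair, where the expression of the gene is shared. The stop codon peak was stronger than the strongest 3'UTR peak in 1174 of 1482 genes (79.2%), by a median of 0.83 on the log2 scale. It was stronger than the exonic peak in 1000 of 1380 genes (72.5%, median 0.61) and stronger than the start codon peak in 1104 of 1636 genes (67.5%, median 0.43). Against 5'UTR peaks the median difference was 0.95 in 382 genes.

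Peak spans differed between classes. The median was 6512 bases for start codon, 2638 for exonic, 2559 for stop codon, 449 for 5'UTR and 325 for 3'UTR peaks, which is not the order of their enrichment. At least 50% of the whole gene was covered by 31.5% of start codon and 28.3% of stop codon peaks, whereas 75.9% of 3'UTR peaks spanned 500 bases or less. Among the 6988 peaks of 500 bases or less, the 3'UTR class was the most frequent (49.1%) and the stop codon class made up 15.5%. In these short peaks the median log2 enrichment was 1.99 at stop codons, 2.05 in exons, 1.93 in 5'UTRs, 1.84 at start codons and 1.64 in 3'UTRs, so stop codon peaks did not have the highest median. Within 135 genes with a short peak of both classes, the stop codon peak was the stronger one in 67 (49.6%, median difference -0.01 against the 3'UTR peak). Among peaks above 500 and up to 2000 bases the stop codon median was 2.89, against 2.46 for 3'UTR and 2.15 for exonic peaks. Above 10000 bases it was 3.37, against 2.60 for the 54 3'UTR peaks of that span, 2.36 for exonic, 2.21 for start codon and 1.90 for 5'UTR peaks. A peak that covers most of a gene has a single class all the same, and the part of span in the difference between classes was not tested.

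Genes commonly carried more than 1 peak. Of the 13149 genes with a peak, 7063 had 1, 4045 had 2, 1386 had 3 and 655 had 4 or more. The 6086 genes with at least 2 peaks (46.3%, Wilson interval 45.4 to 47.1%) held 68.3% of all peaks. The number of peaks increased with the genomic span of the gene. Expressed genes with no peak, noncoding ones included, had a median span of 6495 bases, those with 1 peak 14356, those with 2 peaks 24730 and those with 5 or more 72542.5. Among expressed protein coding genes alone the median was 10760 bases without and 21517.5 with a peak. Across the 11199 expressed genes with a peak, Spearman's rho of peak number and gene span was 0.31. Among expressed protein coding genes, 71.7% of the shortest 20% (up to 5697 bases) and 90.7% of the longest 20% (from 60271 bases) carried a peak. Median levels did not follow the peak number in the same way: they were 8.36 FPKM with no peak, 9.98 with 1, 10.5 with 2 and 6.93 with 5 or more.

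**Figure D2:**
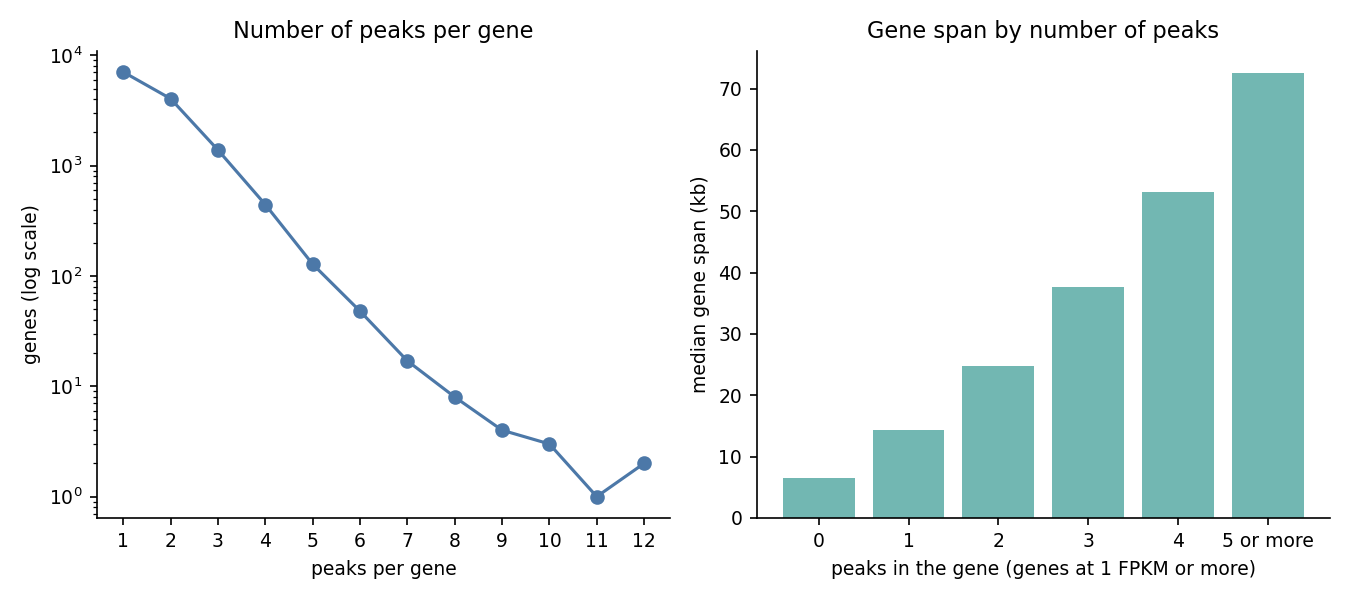
Left, the number of genes (log scale) that carry each number of peaks, from 7063 genes with 1 peak to 2 genes with 12. Right, the median genomic span in kb of expressed genes, noncoding ones included, by their number of peaks, from 6495 bases in genes without a peak to 72542.5 bases in those with 5 or more.

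The genes with the most peaks spanned from 17143 bases in AC141959.1 to 463061 bases in Fat3. Dst, which codes for the cytoskeletal linker dystonin, carried 12 peaks, 11 exonic and 1 at the stop codon, with log2 enrichments between 1.44 and 2.88. Its level was 12.5, 10.5, 15.0 and 11.6 FPKM in replicates 1 to 4. The transcripts AC141959.1 and AABR07044388.2 carried 12 and 11 peaks. Kmt2d, a histone H3 lysine methyltransferase, carried 10, the strongest with a log2 enrichment of 3.68. Cmya5 also had 10 peaks at 0.577 ± 0.0953 FPKM. The kinase gene Wnk1, the basement membrane collagen gene Col4a4, the cadherin gene Fat3 and the noncoding AABR07064873.1 had 9 each.

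The strongest peaks of expressed genes came from several classes. Map3k1, a kinase upstream of JNK signalling, had an exonic peak with a log2 enrichment of 8.37 (330-fold, adjusted p = 3.08e-16 by the authors) on chromosome 2 from 43356236 to 43392363. Its gene was at 4.30, 3.77, 4.83 and 4.03 FPKM in the 4 libraries, and its other peak, at the stop codon, had a log2 enrichment of 2.34. LOC103690038 (exonic, 8.12), LOC108348139 (start codon, 7.86) and LOC679739 (stop codon, 6.89) followed among the genes without an established name. Extl3, a glycosyltransferase of heparan sulfate synthesis, had a 3'UTR peak of 225 bases at 7.66 (chromosome 15, 48422492 to 48422716) and a start codon peak at 4.02. Both peaks of the RNA-binding protein gene Rbm12 were exonic, at 6.67 and 6.06. The small selenoprotein gene Selenow stood out in level, at 86.8, 85.7, 68.7 and 74.7 FPKM, with an exonic peak of 6.14. LOC100910130 (start codon, 5.99), Bag5l1 (exonic, 5.95) and the deubiquitinase gene Usp48 completed the 10 highest. Usp48 had 5 peaks, and its 3'UTR peak at 5.93 stood far above the other 4, which lay between 1.31 and 2.98. The adjusted p-value of the Map3k1 peak was far from the smallest in the list although its enrichment was the highest. At the stop codon Faim (5.56) came second after LOC679739. The genes leading the remaining classes were LOC108348137 and Pik3c2b in the 5'UTR (5.62 and 4.81), AC132752.2 and Rtl8a in noncoding exons (5.64 and 5.42), and AABR07037451.2 and Rabgap1l in introns (4.43 and 4.06).

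The share of genes with a peak changed with their level, and not in 1 direction. Of 1338 genes listed at 0 FPKM in all 4 libraries, 22 carried a peak (1.64%), and of those above 0 and under 0.1 FPKM 4.46% did. The share increased to 33.1% between 0.1 and 0.5 FPKM, 62.6% between 0.5 and 1, and 79.5% between 2 and 5. It was highest, at 87.0% (Wilson interval 85.7 to 88.1%), among the 2869 genes between 10 and 20 FPKM. Above this it declined to 73.8% between 50 and 100 FPKM, 56.9% between 200 and 500, and 56.1% (46.3 to 65.5%) among the 98 genes at 500 FPKM or more. The intervals of the 10 to 20 FPKM bin and of every bin above 50 FPKM did not overlap. Protein coding genes alone had the same course, as the plot of the share by level shows. The median gene span also changed, from 22694 bases between 10 and 20 FPKM to 3421.5 bases at 500 FPKM or more, and its part in the decline was not tested.

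**Figure D3:**
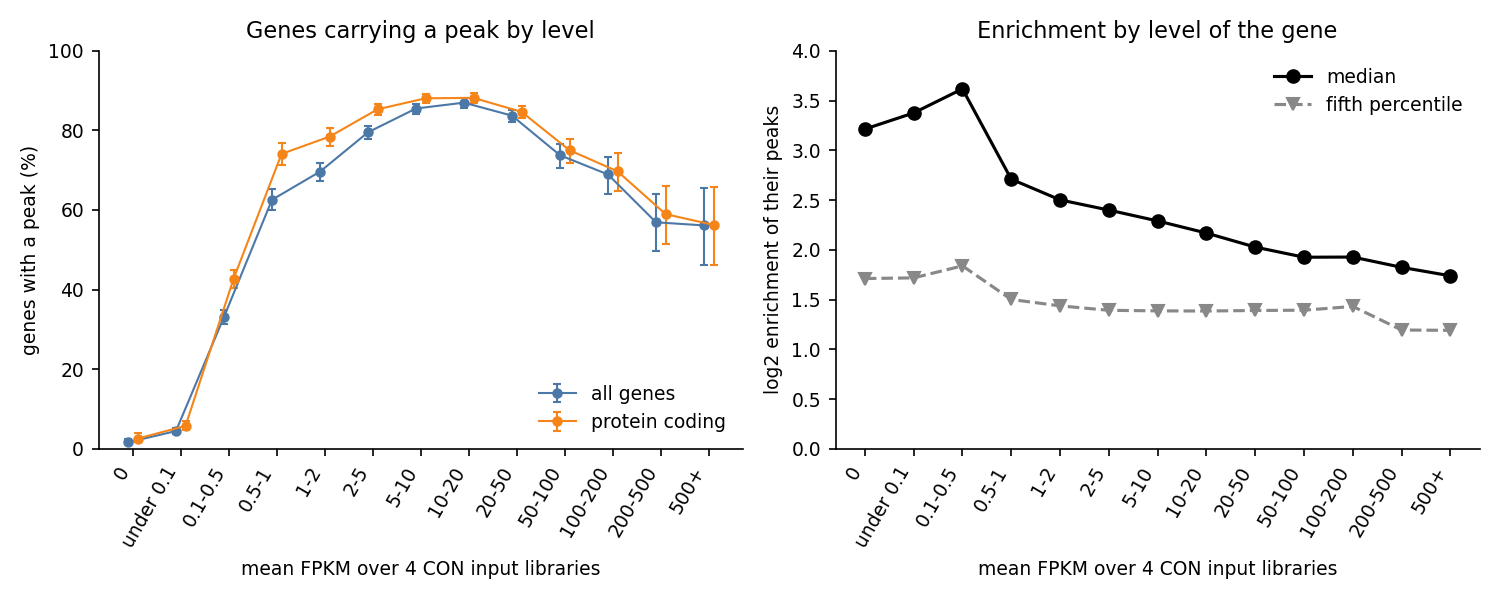
Left, the percentage of genes with a peak by bin of mean FPKM over the 4 CON input libraries, for all genes and for protein coding genes, with 95% Wilson intervals: the share is highest between 10 and 20 FPKM (87.0% of all genes) and lower on both sides. Right, the median and the fifth percentile of the log2 enrichment of their peaks, with the median going from 3.62 between 0.1 and 0.5 FPKM to 1.74 at 500 FPKM or more.

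The enrichment of peaks was lower in more abundant genes. The median log2 enrichment was 3.62 in genes between 0.1 and 0.5 FPKM, 2.50 between 1 and 2, 2.17 between 10 and 20, and 1.74 at 500 FPKM or more. Across 22205 peaks Spearman's rho of enrichment and level was -0.26. The peaks share their libraries, and weak peaks of low genes may not have been listed. The fifth percentile of enrichment was 1.84 in genes between 0.1 and 0.5 FPKM and 1.19 in genes at 500 FPKM or more. In the bins from 2 to 200 FPKM it lay between 1.38 and 1.43. Over these bins the median went from 2.40 between 2 and 5 FPKM to 1.93 between 100 and 200. The part of unlisted weak peaks in the lower medians was not tested.

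The levels of genes with and without a peak differed by less than the choice of genes moved the value. Over expressed genes the median level was 9.96 FPKM with a peak and 8.36 without. The difference of medians on the log2(FPKM + 1) scale was 0.20, 0.21, 0.27 and 0.25 in replicates 1 to 4, a mean of 0.23 ± 0.03 (SD, n = 4), with genes carrying a peak higher in each library. Among protein coding genes alone it turned to -0.24, -0.23, -0.15 and -0.23 (mean -0.21 ± 0.04), with medians of 10.2 FPKM with and 12.1 without a peak. Over all genes at 5 FPKM or more it was -0.47 ± 0.05. Both ends of the range were fuller among genes without a peak: 17.9% of them were under 2 FPKM and 8.87% at 100 FPKM or more, against 9.74% and 3.69% of genes with one. With 4 libraries, the smallest 2-sided p of an exact sign-flip permutation test is 0.125, so no p is given. The genes with a peak held between 69.6% and 71.7% of all FPKM of a library.

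The most abundant transcripts without a peak were mostly those of translation. Eef1a1, the elongation factor that brings aminoacyl-tRNA to the ribosome, had the highest level among them with 5064, 4461, 4485 and 4175 FPKM and carried no listed peak. Rplp0, Rpsa, Rps27, Rplp1 and Rpl19, all ribosomal protein genes, had means between 939 and 1607 FPKM and no peak either. Actb, which codes for cytoplasmic actin, was at 1446, 1437, 1346 and 1522 FPKM and the selenium carrier gene Selenop at 874, 985, 1237 and 1217 FPKM. LOC108352650 and LOC100360087 completed the 10. How the authors counted reads shared with copies and pseudogenes, which are many for Eef1a1, Actb and the ribosomal genes, was not stated in the labels or headers.

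The most abundant transcripts with a peak included the steroid machinery of the ovary. Star, which moves cholesterol into mitochondria, was at 2201, 3908, 2747 and 5164 FPKM and had a stop codon peak with a log2 enrichment of 2.61 and an exonic one at 1.11. Cyp11a1, the side-chain cleavage enzyme that starts steroid synthesis, was at 2211, 3129, 2276 and 3853 FPKM with 1 start codon peak at 2.09. Replicates 2 and 4 had more of both transcripts than replicates 1 and 3. Hsd3b3, a 3-beta-hydroxysteroid dehydrogenase whose family has near-identical members, had 2 exonic peaks up to 2.14, and Scarb1, the receptor that takes up cholesterol from HDL, had 1 at the stop codon at 1.63. Tmsb4x (thymosin beta 4) had a stop codon peak at 3.33, the strongest among these 10. Fth1, Rpl41, Akr1c3, Apoe and Tpt1 had highest peaks between 1.22 and 2.20.

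The transcripts of the m6A machinery were themselves marked, at about the rate of expressed genes in general. Of 12 writer genes, all expressed, 11 carried a peak (91.7%, Wilson interval 64.6 to 98.5%), of 2 erasers both, and of 12 expressed readers 11. This stands beside 80.8% of all expressed genes, which lies within the writer and reader intervals. Mettl3, the catalytic subunit, was at 31.8, 36.1, 32.3 and 30.0 FPKM and had a start codon peak at a log2 enrichment of 2.34 (chromosome 15, 28713944 to 28721119) and a stop codon peak at 1.68. Its partner Mettl14 was at 10.8, 9.80, 11.9 and 8.95 FPKM, also with a stop codon (2.82) and a start codon peak (2.06). The level of Mettl14 was lower than that of Mettl3 in all 4 libraries, by FPKM, which is a value per length.

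Among the other subunits of the complex, the strongest peaks were in Rbm15b (exonic, 4.53), Cbll1 (stop codon, 4.52) and Rbm15 (stop codon, 4.26). Rbm15 and Rbm15b are RNA-binding adaptors and Cbll1 is a RING finger protein of the complex. Zc3h13 (3.84), Wtap (3.76) and Virma (3.47) followed, the first and second each with a single peak, of the stop codon class. The peaks of Rbm15b and Rbm15 spanned the whole gene, and that of Wtap 24767 of 25132 bases. The levels of these genes lay between 3.10 ± 0.471 FPKM in Rbm15 and 20.9 ± 1.60 in Wtap. Of the enzymes that act outside this complex, Mettl16, which methylates U6 snRNA, had a stop codon peak at 3.52, and Pcif1, which writes m6Am at the cap, had 3 peaks up to 3.47. Zcchc4, which methylates ribosomal RNA, had 1 5'UTR peak at 1.61. Mettl5, another methyltransferase of ribosomal RNA, was at 12.6, 11.2, 11.9 and 10.8 FPKM and had no listed peak, although 87.0% of all genes between 10 and 20 FPKM had one.

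Both demethylase genes carried 2 peaks. Fto was at 21.7, 19.5, 18.7 and 19.6 FPKM with an exonic peak at 1.61 and a 3'UTR peak at 1.39. Alkbh5 was at 19.6, 20.03, 20.5 and 20.8 FPKM with a start codon peak at 2.16 and a stop codon peak at 1.91. The median over the 4 eraser peaks was 1.76, against 2.31 over all peaks, 2.17 and 2.03 over peaks of all genes between 10 and 20 and between 20 and 50 FPKM, and 2.82 over the 19 writer peaks.

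The cytoplasmic readers Ythdf1, Ythdf2 and Ythdf3, which act on the stability and translation of marked mRNA, each had a strong peak of the stop codon class, at 3.80, 4.25 and 4.27. These peaks spanned 14456, 24999 and 31382 bases, where the genes span 15510, 24999 and 33007. The class therefore does not place the enrichment at the stop codon itself. Ythdf2 was at 17.0, 17.2, 15.2 and 16.1 FPKM and Ythdf3 at 12.4, 12.7, 15.5 and 12.5. The nuclear reader Ythdc1 had 3 peaks up to 2.78 at 25.1 ± 3.52 FPKM. Ythdc2, an RNA helicase known for its role in entry into meiosis in mice, was the expressed reader without a peak, at 1.87, 2.0997, 2.58 and 1.80 FPKM. Hnrnpa2b1, an RNA-binding protein proposed to read nuclear m6A, was the most abundant with 419, 359, 433 and 371 FPKM and 2 exonic peaks at 3.18 and 1.62. Prrc2a, Rbmx and Eif3a had highest peaks of 3.18, 3.18 and 3.86, and Hnrnpc, Elavl1 and Fmr1 of 2.21, 2.13 and 2.31. Igf2bp2, under the expression threshold at 0.636 ± 0.223 FPKM, nevertheless had a stop codon and a 3'UTR peak at 2.30 and 2.67.

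**Figure D4:**
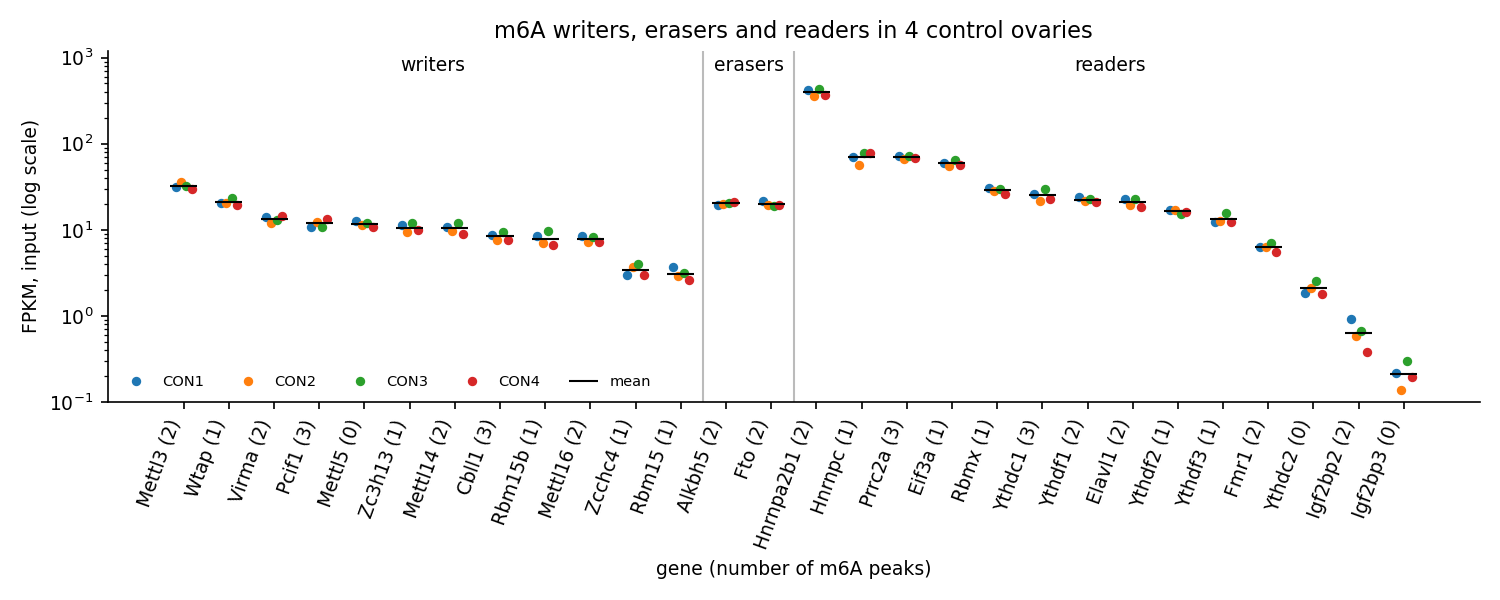
FPKM (log scale) of m6A writer, eraser and reader genes in the 4 CON input libraries, with the mean as a bar and the number of peaks in brackets. Hnrnpa2b1 has the highest level (396 ± 35.8 FPKM) and Igf2bp3 the lowest (0.213 ± 0.0685), and Mettl5, Ythdc2 and Igf2bp3 carry no peak.

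Of the 7 genes that the series text names, 6 carried peaks in control ovary, beside 80.8% of all expressed genes and 84% of expressed protein coding genes. Igf2bp3, a reader that stabilises its targets, was the exception: it was at 0.215, 0.138, 0.303 and 0.197 FPKM and had no listed peak. In that range of level 33.1% of all genes and 42.7% of protein coding genes had one. Cenpa, the histone H3 variant of centromeres, was at 2.65, 1.87, 1.89 and 1.43 FPKM, with an exonic peak at 1.40 and a 3'UTR peak at 1.58, both under the median of all peaks. Bub1, a kinase of the spindle checkpoint, was at 4.36, 3.08, 3.72 and 2.80 FPKM with peaks at the stop codon (2.54; chromosome 3, 120374329 to 120374778) and the start codon (1.69). Polq, a DNA polymerase of end joining, was listed at only 0.367, 0.305, 0.388 and 0.234 FPKM and had 3 exonic peaks at 4.17, 3.77 and 3.03, all within 2000 bases of chromosome 11 between 66618871 and 66620720. Replicate 4 had the lowest FPKM for Cenpa, Bub1 and Polq.

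Several groups of regulatory genes carried peaks in every expressed member. All 35 genes of chromatin and histone methyltransferases did, with a median of 3 peaks per gene, and so did all 30 kinetochore and spindle checkpoint genes, all 23 immediate-early genes and all 13 Hedgehog pathway genes. The background is 80.8% of all expressed genes and 84% of expressed protein coding genes. In the same bins of level it is 84.8%, 80.8%, 80.0% and 82.8% of all genes, noncoding ones included. The lower Wilson bounds of the 4 lists were 90.1%, 88.6%, 85.7% and 77.2%, and the last, of the Hedgehog list, is under these shares. With peaks of a log2 enrichment of at least 2 alone, 32 of 35, 23 of 30, 22 of 23 and 12 of 13 remained, against 61.5% of expressed genes. The chromatin and immediate-early genes differed in span, with medians of 59638 and 3803 bases. Of expressed protein coding genes, 87.7% of those from 27343 to 60270 bases and 90.7% of longer ones carried a peak. Of those up to 5697 bases 71.7% did, and the part of span in the shares of the lists was not tested.

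Immediate-early genes, which answer growth signals within minutes, had the strongest peaks of these lists, with a median log2 enrichment of 3.75 against 2.31 over all peaks. Jund had its highest peak at 5.09, Dusp1 at 4.60, Jun at 4.45 and Egr1 at 4.28, and a peak of the stop codon class was present in each. That of Jun spanned the whole gene. Of these 4, Egr1 varied most among rats, at 129.9, 42.3, 77.7 and 26.6 FPKM, whereas Jun was at 54.6, 47.9, 58.5 and 50.8. Chromatin genes had many weaker peaks, for example 6 in Chd3 and 5 in Chd4, remodelling enzymes, with highest values of 3.60 and 2.60. Kinetochore genes had a median of 2.03, with Tpx2 at 3.74, the kinases Aurka at 3.72 and Aurkb at 3.24, and Bub3 at 2.02. Aurkb was at 15.2, 25.8, 10.5 and 5.27 FPKM.

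Of the SMAD and TGF-beta family 28 of 30 genes carried a peak, of KIT, PI3K and FOXO follicle activation 19 of 21, of Notch signalling 19 of 20 and of the circadian clock 15 of 16. The shares over all genes in the same bins were 82.4%, 82.5%, 83.8% and 84.6%, and each lies within the Wilson interval of its list, as does the 80.8% of all expressed genes. Of the genes of double-strand break and crosslink repair 23 of 27 carried one (85.2%), beside 78.9% of all genes, noncoding ones included, in the same bins. Among the repair genes Fanci, Fancd2, Rad54l and Xrcc3 had no peak. In the other lists the members without one were Smad9 and Fst, Kit and Pik3cb, Lfng, and Cry1. Fst codes for follistatin, which binds activin, and at 51.0, 65.0, 36.1 and 59.9 FPKM it was by far the most abundant of these genes without a peak. Kit, the oocyte receptor of the granulosa signal KIT ligand, was at 6.77, 6.07, 6.39 and 6.004 FPKM. Foxo1, a transcription factor of follicle cells, had 1 peak of the stop codon class at 4.85, which spanned the whole gene. Inhbb, an inhibin and activin subunit, had 1 at the stop codon and another in the 3'UTR, up to 4.16. In the Hedgehog list the granulosa ligand Ihh had a stop codon peak at 4.55 and its receptor Ptch1 had 4 peaks up to 4.18. Rbpj and Notch2 of the Notch pathway had highest peaks at 3.90 and 3.86.

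Core housekeeping genes were described in the same way, with no test. Of 79 cytosolic ribosomal protein entries 24 had a peak (30.4%, Wilson interval 21.3 to 41.2%), where 59.4% of all genes in the same bins of level had one. That share includes the ribosomal entries themselves, whose median level was 484 FPKM, and the bin at 500 FPKM or more holds only 98 genes. The ribosomal entries cover 71 symbols, so some are copies. Of 74 expressed nuclear-coded genes of oxidative phosphorylation 42 had one (56.8%, 45.4 to 67.4%), against 69.8% in the same bins. The proteasome, with 22 of 30 (73.3%), lay near the 74.1% of its bins. Among abundant ribosomal members with a peak, Rps15, at 1171, 1162, 1069 and 939 FPKM, had one at the stop codon with a log2 enrichment of 1.29, and Rpl35 had one at 2.64. In oxidative phosphorylation the ATP synthase subunit Atp5f1b at 716 ± 66.7 FPKM and the cytochrome oxidase subunit Cox4i1 at 454 ± 39.3 had none, while Cox6a1 at 426 ± 49.0 had a stop codon peak at 3.15. The ribosomal genes were short, with a median span of 2375 bases, which is under that of expressed genes without a peak.

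**Figure D5:**
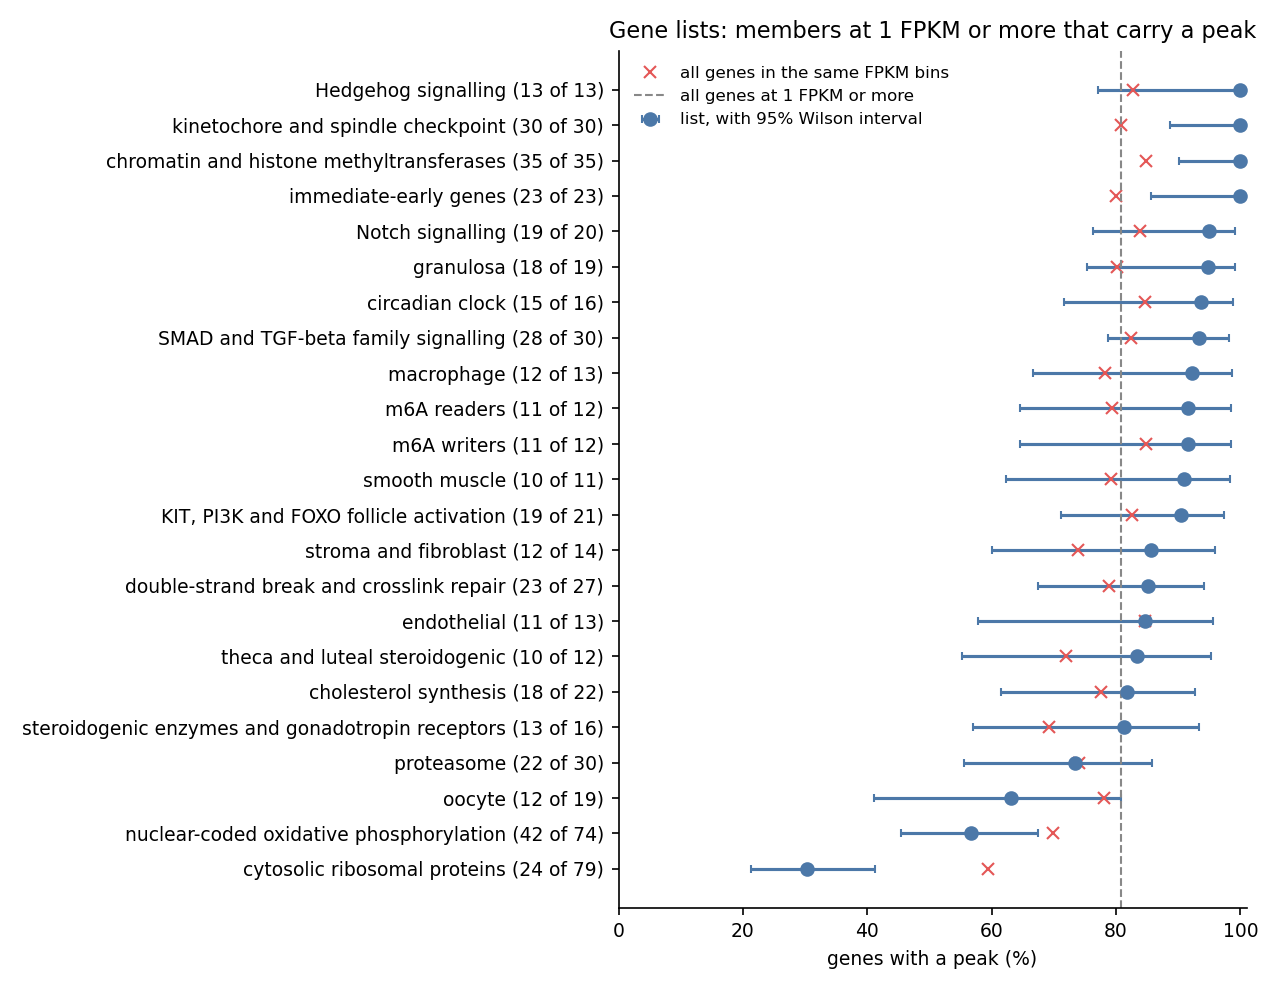
Percentage of expressed members that carry a peak, for the lists with at least 10 expressed entries, with 95% Wilson intervals (counting error only). Crosses give the share over all genes in the same FPKM bins and the dashed line the 80.8% of all expressed genes: 4 lists lie at 100%, and cytosolic ribosomal proteins lie lowest at 30.4%.

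Of 16 genes of steroid synthesis and gonadotropin response 13 carried a peak (81.3%), and of 22 cholesterol synthesis genes 18 (81.8%), beside 69.3% and 77.5% of all genes in the same bins and 80.8% of all expressed genes. Each list's Wilson interval holds these shares. Fdx1, the electron donor of Cyp11a1, had no peak at 504, 621, 441 and 711 FPKM, nor did Cyp17a1, the enzyme of androgen synthesis, at 25.1, 10.8, 25.6 and 26.0, nor Hsd17b7 at 11.3, 29.0, 20.4 and 68.0. Lhcgr, the receptor of luteinising hormone, varied from 58.5 to 367 FPKM and had 2 exonic peaks up to 4.02. In cholesterol synthesis the enzymes Mvk, Mvd, Fdps and Hsd17b7 had none. Msmo1 had the highest peak among the abundant members, at 3.60, and Dhcr7 and Hmgcs1 followed at 2.64 and 2.63.

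Of the granulosa markers 18 of 19 carried a peak, with a median enrichment of 3.24, and Fst was the exception (94.7%, Wilson interval 75.4 to 99.1%, against 80.1% in the same bins). Amh, the hormone of growing follicles, was at 74.6, 52.6, 62.5 and 48.3 FPKM with 1 exonic peak at 2.73, and the gap junction gene Gja1 had a stop codon and a 3'UTR peak, up to 3.70. Macrophage (12 of 13), smooth muscle (10 of 11), endothelial (11 of 13), stroma (12 of 14) and theca and luteal markers (10 of 12) lay between 83.3% and 92.3%, where all genes in the same bins had 78.2%, 79.3%, 84.7%, 73.9% and 72.0%. Star, which carries peaks, is counted in both the stroma list and the theca and luteal list. The interval of each cell type list with at least 10 expressed markers holds its same-bin share over all genes, noncoding ones included. Cell types were not compared by a test. Col1a1 had a stop codon peak at 3.52 and Col3a1 a 3'UTR peak at 0.91, one of 26 peaks in the whole list under a log2 value of 1. In the oocyte list 12 of 19 expressed markers had one (63.2%, 41.0 to 80.9%), against 78.1% in the same bins. Their levels were low in whole ovary, with a median of 2.25 FPKM. Of protein coding genes alone, 78.4% between 1 and 2 FPKM, 85.3% between 2 and 5 and 88.1% between 5 and 10 had a peak. From 2 FPKM up these shares lie above the oocyte interval, and a same-bin share over coding genes was not computed. Gdf9, the growth factor the oocyte sends to granulosa cells, was at 8.44, 5.38, 7.49 and 4.62 FPKM with a stop codon peak at 4.17. Npm2, Ooep and Tle6, which act in the egg and early embryo, had highest peaks of 2.47, 1.43 and 1.62. Padi6 at 9.56 ± 2.30, Zp2 at 9.31 ± 3.40, Zp3 at 6.69 ± 1.28 and Kit at 6.31 ± 0.349 FPKM had none. Zp2 and Zp3 code for proteins of the egg coat.

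Markers of tissue beside the ovary were also read. All 5 expressed markers of ciliated oviduct epithelium had a peak (Wilson interval 56.6 to 100%, against 73.6% in the same bins), with Rsph1 at 2.01, 5.13, 0.957 and 0.662 FPKM. Of 5 expressed adipocyte markers 2 did (11.8 to 76.9%, against 79.9%), Pparg and Adipoq, while Fabp4, at 249, 37.2, 42.5 and 28.0 FPKM, had none. With 1 peak list for the group, the share of a single rat in a peak cannot be told apart.

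Noncoding genes are given beside the 84% of expressed protein coding genes, with no test. Of 185 expressed lincRNA genes 92 carried a peak (49.7%, Wilson interval 42.6 to 56.9%), and of 135 processed pseudogenes 53 (39.3%). None of 170 expressed snoRNA genes and none of 92 expressed miRNA genes did, which allows shares of up to 1.76% and 3.26% (3 counts of the total). The libraries were made from poly(A) RNA. Tug1, a long noncoding RNA, was at 10.9, 11.5, 14.9 and 11.8 FPKM and had 4 peaks up to 4.20.

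The mitochondrial chromosome held 13 peaks with log2 enrichments between 1.45 and 3.78. The authors assigned them to 9 of its 13 protein coding genes, to both ribosomal RNAs and to 0 of 15 tRNA entries. Each tRNA entry is shorter than the shortest listed peak of 100 bases. By position, 12 of the 13 coding genes overlapped a peak on their own strand. The peaks on Mt-nd2 (3.40), Mt-atp6 (3.02), Mt-nd3 (3.78) and Mt-nd6 (3.51) covered the entire gene, and Mt-nd6 is the one coded on the other strand. Mt-co1, at 114 ± 19.5 FPKM the most abundant of the 13, was the one with no overlap. Mt-atp8 and Mt-nd4l were covered entirely by peaks assigned to the neighbouring Mt-atp6 and Mt-nd4, and 7.53% of Mt-co3 lay under the Mt-atp6 peak. These genes were outside the naming rule and were chosen after their values were seen.

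Among the short RNA genes, 11 peaks were typed as miRNA, all in genes under 1 FPKM or not in the expression table. Mir223, a microRNA of myeloid cells, was 1 of 2 with an entry by symbol in the RefSeq table, and its sequences are shown because its peak is the one of these that could be tied to a known RNA on the same strand. The peak, on the X chromosome from 65367862 to 65368636 on the plus strand, had a log2 enrichment of 3.46 and spanned 775 bases, where the gene spans 110. It therefore includes flanking RNA, and the gene was listed at 0.343 FPKM. In the hairpin the capitals mark GGAC, the core letters of the usual m6A sequence, at position 48 counted from its 5' end. In the mature forms the capitals mark the seed, bases 2 to 8. The sequences are from RefSeq (GRCr8).
Mir223 hairpin: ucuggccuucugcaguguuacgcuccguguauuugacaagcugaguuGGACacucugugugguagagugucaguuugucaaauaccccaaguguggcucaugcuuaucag
rno-miR-223-5p: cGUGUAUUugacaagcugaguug
rno-miR-223-3p: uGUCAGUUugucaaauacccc
GGAC, searched on the RNA strand, is present in 99 of the 419 rat hairpins of that table (23.6%), so its presence is a description and not a site. For the other peaks no sequence is printed.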

How the data were processed

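Input and IP libraries of poly(A) RNA were made per rat and sequenced with strand kept, per the labels' protocols. Tools named in the submitters' processing notes, without their roles, are HISAT2 2.0.4, StringTie 2.1.2, HOMER 4.10, edgeR 4.1 and fastp 0.19.4. Those notes name the human build GRCh38, which the rat identifiers in the files contradict. Neither the build of the coordinates nor the peak caller is given in the sources used here. In 1 table the authors deposited FPKM per gene and input library, per the file headers. They also deposited 1 list of CON peaks with a log2 enrichment, p-value and adjusted p-value per peak, per the file headers. Listed peak starts are counted from 0 (5271 of them are 1 below the gene start) and were raised by 1, so coordinates count from 1.

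Peaks were joined to genes by gene identifier, and 65 genes with a peak are not in the expression table. Medians, shares with 95% Wilson intervals and order-statistic intervals of medians were computed in Python 3.11.15 with pandas 2.3.3, numpy 2.4.6 and scipy 1.17.1, after tests on simulated data. Levels used a pseudocount of 1 and a filter at a mean of 1 FPKM. FPKM of VCD libraries in the same table (4 columns) were not used. The design allowed no test of peaks, which come as 1 list. A gene counts as carrying a peak where the authors assigned one to it. The members, the gene lists and the alternatives were chosen with earlier results of these data known. Same-bin shares average, over a list's members, the share of all genes in each member's FPKM bin. All genes here include noncoding ones and the list's own members, and the share of protein coding genes alone was higher in every bin.

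Named genes are the 10 with the most peaks, the 10 highest peaks in genes with a symbol and at least 1 FPKM, and the 10 most abundant coding genes with and without a peak. They also include the 2 highest peaks per class, the 7 genes of the series text, up to 4 most abundant members with and without a peak per list, and all writers, erasers and readers. Igf2bp1 was not analysed here, and a few genes that the rule names are not reported here. Replicates are numbered rats, so n = 4 counts animals as the titles give them.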

Additional observations from a re-analysis of the deposited data

Results flagged for a closer look

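Of 211 sets of 4 CON input values checked, 12 had 1 library far from the other 3 (a gap over the range above Dixon's critical value), which is 5.69%, where chance gives about 1 in 20. The library stood high in Col4a4 (8.56 FPKM in replicate 3), Ythdf3 (15.5 in replicate 3), H2ax (37.7 in replicate 1), Nbn (16.3 in replicate 3), Ehmt2 (51.1 in replicate 2), Smarca4 (47.9 in replicate 4), Col3a1 (329.6 in replicate 1), Col1a1 (267 in replicate 1) and Fabp4 (249 in replicate 1). It stood low in Kmt2d (18.0 in replicate 2) and Cyp17a1 (10.8 in replicate 2). Replicate 4 had the fewest genes at 1 FPKM or more (13618). Fabp4 was at 28.0 to 42.5 FPKM in the other 3 rats, and Cyp17a1 at 25.1 to 26.0. Both lack a peak.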

How the results depend on the processing

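Peaks had no replicates, so shares and medians carry counting error only and no result has a test. No paired analysis was possible because the results come from no test between groups. The share of stop codon peaks (32.4%) became 44.3% among peaks with a log2 enrichment of at least 2, 46.2% for the strongest peak per gene, and 15.5% among peaks of 500 bases or less, an alternative chosen after seeing the data. The stop codon median exceeded that of all other peaks by 1.00, by 0.67 for the strongest peak per gene, and by 0.22 for peaks of 500 bases or less. Genes with 2 or more peaks (46.3%) fell to 25.7% with peaks of log2 enrichment of at least 2 and to 42.0% with peaks within 100 bases joined. The share of genes with a peak (80.8%) became 57.7% with no filter, 79.2% at 0.5 FPKM, 83.0% at 5 FPKM, 61.5% for peaks of log2 enrichment of at least 2 and 84.0% for coding genes, and lay between 80.7% and 80.9% with each replicate left out. The level of genes with minus without a peak (0.23) became 2.98 with no filter and turned to -0.47 at 5 FPKM and -0.21 for coding genes. It was between 0.20 and 0.25 with each replicate left out and 0.25 with a pseudocount of 0.1. Genes carrying peaks numbered 13084, and from 10213 to 13468 under the alternatives. The lists together had 553 expressed genes, of which 425 carried a peak and 328 one at a log2 enrichment of at least 2. The shares over all expressed genes were 80.8% and 61.5%.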
